A study of Mus musculus with 8 samples.

Results

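The 10 genes of secreted or shed acute phase proteins followed here in mouse liver were Apcs, Lbp and Cd14, Fgl1 and Lrg1, Hp and Hpx, Itih3 and Itih4, and Il1rn. The array measures transcript clusters, groups of probes for one gene, and a cluster was taken where its platform gene symbol was one of these names. Each of the 10 genes had 1 such cluster, so 10 of the 19938 genes with a single symbol are described. Of these, 9 were among the 11963 brighter genes that were tested, and Cd14 was below that limit. The livers came from 40 male C57Bl/6J mice in 4 groups of 10, and the platform was the Affymetrix Mouse Gene 1.0 ST array. HFD+As mice ate a high-fat diet with 42% of calories from fat and drank deionized water to which sodium arsenite had been added, with 3 mg inorganic arsenic in each litre, and HFD mice ate that diet with deionized water alone. LFD+As mice ate a low-fat diet with 13% of calories from fat and drank the arsenite water, and LFD mice ate the low-fat diet with deionized water alone. Feeding and exposure lasted 10 weeks according to the protocols, whereas the source label gives 90 days. Each array held equal RNA amounts of 5 mice, so a group has 2 arrays (replicates 1 and 2). Every error below rests on spreads between pools, not between mice. Each joins the spread within all 4 groups and is drawn toward that of all genes tested. It is thus not the spread of the 2 pools of a single group.

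The acute phase response is the change in plasma proteins that the liver makes during infection or injury. In hepatocytes, cytokines of the interleukin 6 family act through the shared receptor chain encoded by Il6st and the transcription factor STAT3, and interleukin 1 acts through NF-kB, with C/EBP factors taking part in both. Serum amyloid P component, the Apcs product, is a pentraxin and a major acute phase reactant of the mouse. Lipopolysaccharide-binding protein (Lbp) hands bacterial lipopolysaccharide to CD14, which passes it to the toll-like receptor TLR4. Haptoglobin (Hp) binds free haemoglobin and hemopexin (Hpx) binds free haem. Itih3 and Itih4 encode heavy chains of the inter-alpha-trypsin inhibitor family, Fgl1 encodes a fibrinogen-like protein secreted by hepatocytes, Lrg1 encodes a leucine-rich glycoprotein that acts on TGF-beta signalling, and Il1rn encodes the antagonist of the interleukin 1 receptor.

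Apcs, Fgl1, Lrg1 and Lbp were higher in HFD than in LFD livers by 2.19 to 2.74 times, and 3 of these 4, without Lbp, were also higher in HFD+As than in LFD livers. Lrg1 and Itih4 were lower in HFD+As than in HFD livers. No gene of the group passed the test for arsenite on the low-fat diet or for the interaction of diet and arsenite. The test was limma over all 11963 genes with Benjamini-Hochberg adjustment, and a gene passed at an adjusted p under 0.05. Signals and differences are on the log2 scale, where a difference of 1 is a doubling. In RefSeq's annotation of build GRCm38.p6 the called genes lie at chr1:172893961-172895054 (Apcs), chr8:41191434-41217978 (Fgl1), chr17:56119678-56121946 (Lrg1), chr2:158306493-158332852 (Lbp) and chr14:30886476-30901986 (Itih4).

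**Figure D1:**
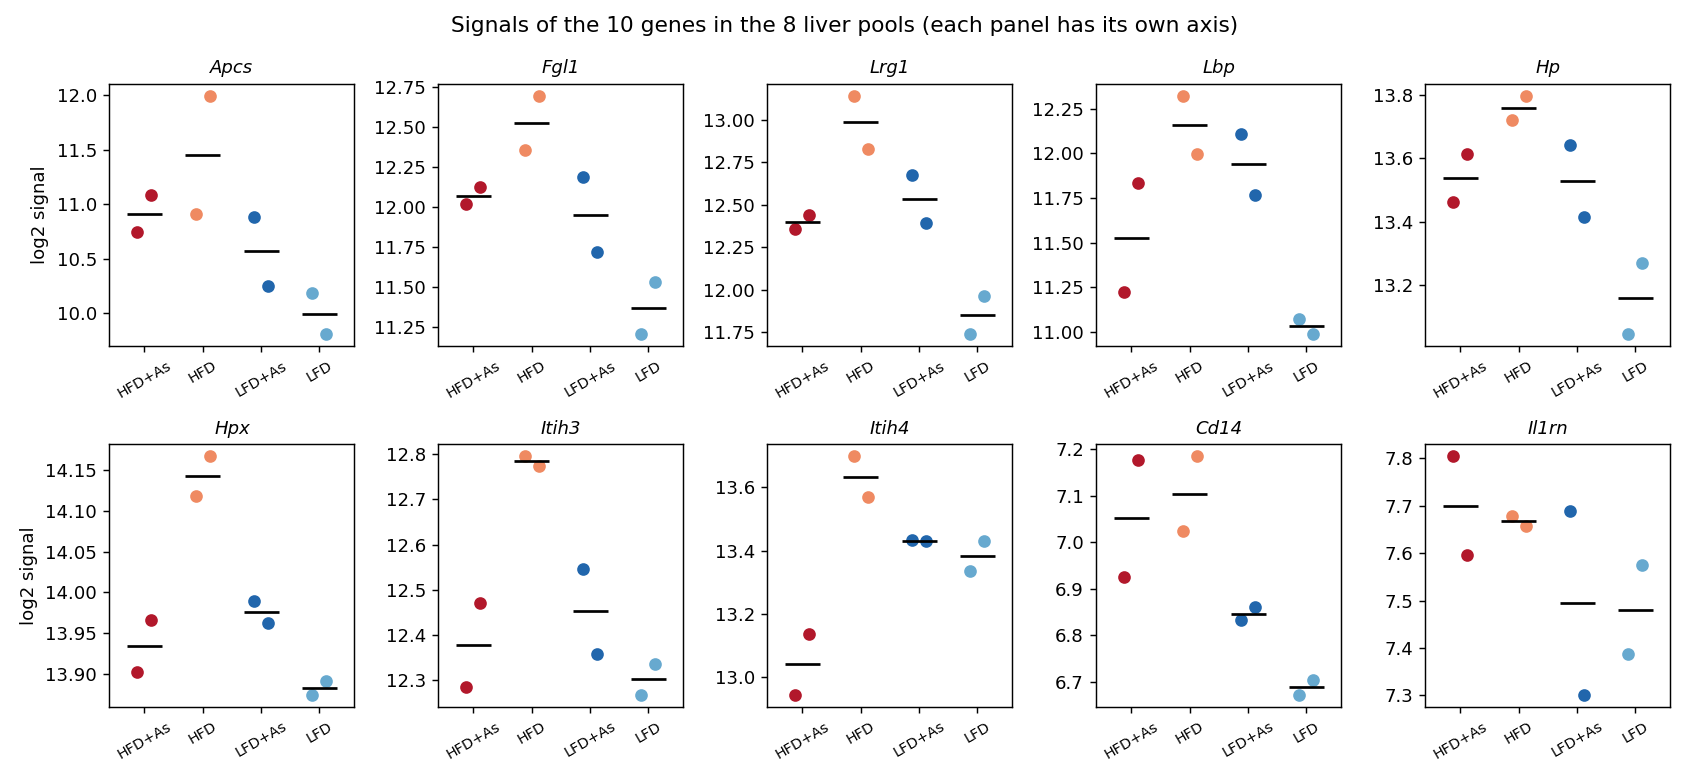
Log2 signals (vertical axis, a separate scale per gene) of the 10 genes in the groups HFD+As, HFD, LFD+As and LFD; points are the 2 pools of 5 mice per group and lines their means. The mean of HFD was the highest of the 4 groups for 9 genes, and for Il1rn that of HFD+As was.

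Of the 9 tested genes, 4 passed as higher in HFD against LFD, beside 0.343% of all genes tested. With HFD+As against LFD, 3 of 9 passed as higher, beside 3.59%, and with HFD+As against HFD, 2 of 9 passed as lower, beside 3.25%. In LFD+As against LFD limma called 0 of 9, beside 0.0669% of all genes in either direction, and 4 of 9 had an unadjusted p under 0.05 and a higher signal, beside 1.78%. Both LFD+As arrays lay above both LFD arrays for 8 of the 9, beside 12.7% of all genes. The median difference over the 9 genes was 0.60 in HFD against LFD (range 0.19 to 1.45), with 0.01 over all genes tested. It was 0.38 in HFD+As against LFD (range -0.34 to 0.92), with -0.10 over all genes, and 0.37 in LFD+As against LFD (range 0.01 to 0.91), with -0.01 over all genes. These 3 comparisons share the 2 LFD arrays. Between HFD and LFD the arrays did not overlap for any of the 9 genes, which held with a higher signal for 21.7% of all genes.

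Apcs had log2 signals of 10.91 and 12.00 in HFD pools, against 10.19 and 9.81 in LFD pools. The HFD pools of this gene lay further apart than those of the other groups, and the lower one lay near replicate 1 of LFD+As. Apcs rose by 1.45 in HFD against LFD (SE 0.28, 95% interval 0.84 to 2.07, adjusted p = 0.0415, n = 2 pools per group), which is 2.74-fold. HFD+As pools had 10.75 and 11.08, and Apcs rose by 0.92 against LFD (SE 0.28, adjusted p = 0.0446), 1.89-fold. LFD+As pools had 10.89 and 10.25, which lay above both LFD pools, with a difference of 0.57 (95% interval -0.04 to 1.18, adjusted p = 0.9998). The order of the means was HFD, HFD+As, LFD+As and LFD, and no step between neighbours in it passed (adjusted p = 0.246 for HFD+As against HFD and 0.466 for HFD+As against LFD+As). The HFD call was lost without HFD replicate 2 (0.91, adjusted p = 0.291), LFD replicate 1 (1.64, adjusted p = 0.117) or LFD replicate 2 (1.27, adjusted p = 0.588), and at the same difference without either HFD+As array (adjusted p = 0.0677). Quantile normalization (1.43, adjusted p = 0.115), testing all genes (adjusted p = 0.139) and removal of the trend with gene span (1.41, adjusted p = 0.0999) also ended it, and the HFD+As call was lost under the same 3 settings and without any array of HFD+As or LFD (0.73 to 1.10).

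Windows of 250 bases before to 50 bases after the annotated start, from RefSeq, build GRCm38.p6, were at hand for 6 of the 10 genes. Fgl1, Lbp, Hp and Cd14 had no window in the set used and were not searched. Apcs, Lrg1 and Itih4 are shown because they passed a test and carry a match to a STAT motif, with matches in capitals. Searches on both strands used TTCNNNGAA and CTGGGAA for STAT factors, TTGCNNAA for C/EBP and a 10-base pattern for NF-kB. That last pattern differs from the general NF-kB consensus, which was not searched. The Apcs window lies at chr1:172895005-172895304 (minus strand), the Lrg1 window at chr17:56121897-56122196 (minus strand) and the Itih4 window at chr14:30886226-30886525 (plus strand), and each is written 5′ to 3′ along its gene.
Apcs: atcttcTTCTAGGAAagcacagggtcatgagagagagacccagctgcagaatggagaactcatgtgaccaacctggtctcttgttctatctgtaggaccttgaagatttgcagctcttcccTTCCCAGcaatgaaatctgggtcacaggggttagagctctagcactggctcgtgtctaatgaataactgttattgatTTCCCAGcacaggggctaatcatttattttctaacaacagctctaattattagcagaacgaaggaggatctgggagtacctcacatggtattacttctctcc
Lrg1: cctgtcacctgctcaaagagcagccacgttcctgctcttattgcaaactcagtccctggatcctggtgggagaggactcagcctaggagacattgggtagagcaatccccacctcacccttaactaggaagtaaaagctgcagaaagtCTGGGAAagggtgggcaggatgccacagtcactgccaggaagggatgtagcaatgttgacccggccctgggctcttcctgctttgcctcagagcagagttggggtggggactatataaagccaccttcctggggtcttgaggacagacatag
Itih4: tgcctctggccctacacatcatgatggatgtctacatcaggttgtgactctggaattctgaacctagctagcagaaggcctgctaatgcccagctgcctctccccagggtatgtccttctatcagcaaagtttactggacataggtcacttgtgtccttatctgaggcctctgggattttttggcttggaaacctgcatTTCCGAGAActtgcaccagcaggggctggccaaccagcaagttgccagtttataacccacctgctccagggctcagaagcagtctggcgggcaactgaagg

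In the Apcs window TTCNNNGAA matched at -244 to -236 from the start and CTGGGAA, on the reverse strand, at -129 to -123 and at -52 to -46. The Lrg1 window held CTGGGAA at -102 to -96 and the Itih4 window TTCNNNGAA at -51 to -43. A match to either STAT motif was found in 4 of the 6 genes (Apcs, Lrg1, Itih4 and Il1rn), beside 17.5% of 32851 promoter windows of the same length, where TTCNNNGAA was in 8.3% and CTGGGAA in 11.1%. The windows of 1 gene can overlap, and Il1rn has 3 of the 8 windows. TTGCNNAA was in the Hpx window and in 10.8% of all windows, and no searched motif was in the Itih3 window. The pattern searched for NF-kB was in 2 overlapping windows of Il1rn and in 1.63% of all. Neither value holds for the general NF-kB consensus. These matches describe letters in a window and were not tied to any measured binding.

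Lbp, whose product delivers lipopolysaccharide to CD14, had 12.32 and 11.99 in HFD pools, against 11.07 and 10.99 in LFD pools. It rose by 1.13 (SE 0.18, 95% interval 0.73 to 1.53, adjusted p = 0.0181), 2.19-fold. In LFD+As pools Lbp had 12.11 and 11.77, far above both LFD pools, and the difference of 0.91 (SE 0.18, 95% interval 0.51 to 1.31) had an unadjusted p of 0.000261 and an adjusted p of 0.160. HFD+As pools had 11.22 and 11.83, a spread wider than in any other group of this gene, and differed from LFD by 0.50 (adjusted p = 0.0834) and from HFD by -0.63 (95% interval -1.03 to -0.23, adjusted p = 0.0674). Lbp thus had its 2 lower group means in HFD+As and LFD, and all HFD+As, HFD and LFD+As pools lay above both LFD pools. The HFD call was lost without LFD replicate 1 (1.17, adjusted p = 0.1000), LFD replicate 2 (1.09, adjusted p = 0.278) or HFD replicate 1 (0.96, adjusted p = 0.0891), and with all genes tested (adjusted p = 0.0691). In LFD+As, Lbp passed without LFD+As replicate 2 (1.08, adjusted p = 0.0460) and where the fit held the LFD+As and LFD arrays alone (adjusted p = 0.0233). The fall against HFD passed without HFD replicate 2 (-0.80, adjusted p = 0.0405) or HFD+As replicate 2 (-0.94, adjusted p = 0.0336), and the difference of HFD+As from LFD passed without HFD+As replicate 1 (0.80, adjusted p = 0.0498).

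Cd14, a membrane-anchored and shed lipopolysaccharide receptor, had 6.93 and 7.18 in HFD+As pools, 7.02 and 7.18 in HFD pools, 6.83 and 6.86 in LFD+As pools, and 6.67 and 6.70 in LFD pools. Its mean over 8 arrays, 6.92, was below the limit of 6.97 for testing, and the deposited values do not tell whether such a signal is above background. All 4 high-fat pools lay above all 4 low-fat pools. With all 19938 genes tested, the difference of the high-fat diet over both waters was 0.31 (SE 0.09, adjusted p = 0.0972) and that of HFD against LFD 0.42 (SE 0.12, adjusted p = 0.386). Of 10 partners of this step, 6 were tested, and in HFD against LFD 0 passed in limma, with 1 at an unadjusted p under 0.05. That was Tlr2, a receptor gene for bacterial lipoproteins, at 0.55 (adjusted p = 0.0724). Tlr2 rose in HFD+As against LFD by 0.42 (adjusted p = 0.0309) and Tirap, an adaptor of TLR2 and TLR4, fell by 0.57 (adjusted p = 0.0155). Those calls held in 4 and 5 of the 8 fits that left out 1 array, and each was lost without HFD+As replicate 1 and without either LFD array. Without HFD+As replicate 2 and with all genes tested, the call of Tlr2 was lost too. Over those fits Tlr2 ranged from 0.40 to 0.44 and Tirap from -0.73 to -0.40.

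Fgl1, the fibrinogen-like gene, had 12.36 and 12.70 in HFD pools, against 11.21 and 11.53 in LFD pools. It rose by 1.16 (SE 0.17, 95% interval 0.79 to 1.52, adjusted p = 0.0111), 2.23-fold. HFD+As pools had 12.02 and 12.13, and Fgl1 rose by 0.70 against LFD (SE 0.17, adjusted p = 0.0159), 1.63-fold. In LFD+As pools it had 12.19 and 11.72, also above both LFD pools, with a difference of 0.58 (SE 0.17, adjusted p = 0.684). HFD+As pools lay below both HFD pools without passing (-0.46, 95% interval -0.82 to -0.09, adjusted p = 0.117), and HFD+As and LFD+As overlapped (0.12, 95% interval -0.25 to 0.48). The HFD call was lost without LFD replicate 1 (0.997, adjusted p = 0.1000), LFD replicate 2 (1.32, adjusted p = 0.0541) or HFD replicate 2 (0.99, adjusted p = 0.0839). Without LFD replicate 1 (0.54), HFD+As replicate 1 (0.76) or HFD+As replicate 2 (0.65) the HFD+As call was lost too.

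Lrg1 had 13.14 and 12.83 in HFD pools, against 11.74 and 11.96 in LFD pools, and rose by 1.14 (SE 0.14, 95% interval 0.83 to 1.45, adjusted p = 0.00494), 2.20-fold. This was the smallest adjusted p of the 9 genes in that comparison, and only leaving out LFD replicate 1 ended the call (1.03, adjusted p = 0.0911) among the 8 arrays. HFD+As pools had 12.35 and 12.44, so that Lrg1 was higher than in LFD by 0.55 (SE 0.14, adjusted p = 0.0223) and fell by 0.59 against HFD (SE 0.14, 95% interval -0.90 to -0.28, adjusted p = 0.0450). With 12.68 and 12.39, the LFD+As pools lay above both LFD pools (0.69, SE 0.14, unadjusted p = 0.000327, adjusted p = 0.171) and overlapped HFD+As (-0.14, 95% interval -0.45 to 0.17). The fall against HFD was not called without HFD replicate 1 (-0.43, adjusted p = 0.421), HFD+As replicate 1 (-0.54, adjusted p = 0.215), HFD+As replicate 2 (-0.63, adjusted p = 0.0674) or either LFD array (-0.59, adjusted p = 0.0596), nor with all genes tested, quantile normalization or the span trend removed (adjusted p = 0.0983, 0.0731 and 0.0890). The rise of HFD+As against LFD was lost without LFD replicate 1 (0.44), HFD+As replicate 1 (0.59) or HFD+As replicate 2 (0.51), and with all genes tested (0.55, adjusted p = 0.0525) or the span trend removed (0.46, adjusted p = 0.0671).

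Genes of the TGF-beta receptor system, on which the Lrg1 product acts, did not pass in HFD against LFD. In a list of 12 relatives and receptors for Apcs, Fgl1 and Lrg1, 10 were tested and 0 passed there in limma, with 1 at an unadjusted p under 0.05. The fibrinogen chain gene Fga stood at 0.33 (adjusted p = 0.339) and Tgfbr2, a TGF-beta receptor gene, at -0.21 (adjusted p = 0.632). The endoglin gene Eng fell by 0.79 in HFD+As against LFD (adjusted p = 0.0128), and Tgfbr2 fell by 0.58 (adjusted p = 0.0130), each in 5 of the 8 fits that left out 1 array. Both were not called without LFD replicate 1, LFD replicate 2 or HFD+As replicate 1 (Eng -0.998 to -0.590, Tgfbr2 -0.77 to -0.39), and Tgfbr2 also not with the span trend removed. Of 8 sinusoidal endothelium markers, 3 passed as lower in the same comparison (median -0.36): Stab2 (-0.91, adjusted p = 0.00420), Kdr (-0.69, adjusted p = 0.0105) and Stab1 (-0.61, adjusted p = 0.0188). Stab2 was called without any 1 array, Kdr not without LFD replicate 1 or HFD+As replicate 1 (-0.88 to -0.50), and Stab1 not without these or HFD+As replicate 2 (-0.73 to -0.48). The summed linear signal of the 8 markers was 7395 and 6771 in HFD+As pools, against 8137 and 7323 in LFD pools, and their part in the results for Eng and Tgfbr2 was not tested.

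**Figure D2:**
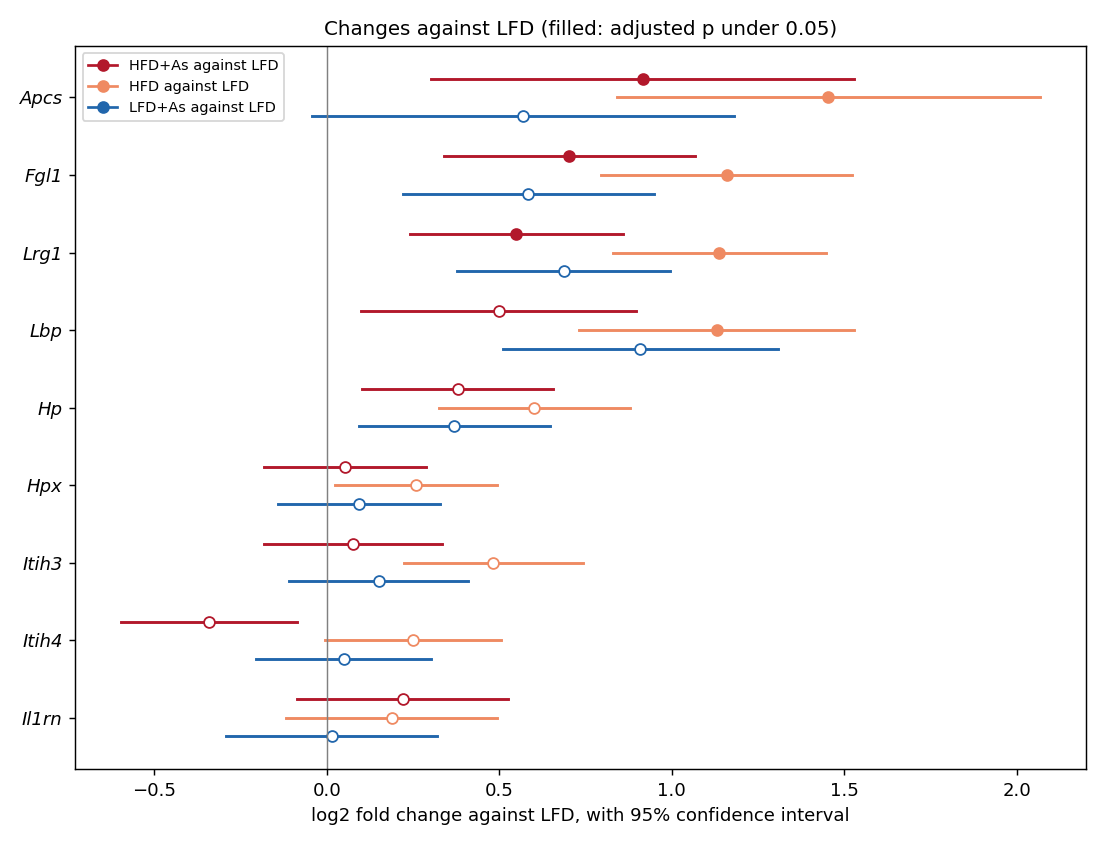
Log2 fold changes against LFD (horizontal axis) of the 9 tested genes with unadjusted 95% confidence intervals, for HFD+As, HFD and LFD+As; filled points had an adjusted p under 0.05. Filled points stand at Apcs, Fgl1 and Lrg1 in HFD+As and at these and Lbp in HFD, and Itih4 in HFD+As is the one point below 0.

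Hp and Hpx, the genes of the haemoglobin and haem binding proteins, had differences that did not pass in any comparison. Hp had 13.46 and 13.61 in HFD+As pools, 13.72 and 13.80 in HFD pools, 13.64 and 13.41 in LFD+As pools, and 13.05 and 13.27 in LFD pools. Both LFD pools lay below the other 6. Its difference was 0.60 in HFD against LFD (95% interval 0.33 to 0.88, adjusted p = 0.0713), 0.38 in HFD+As (adjusted p = 0.0610) and 0.37 in LFD+As (adjusted p = 0.9998). With an intensity trend in the variance prior, Hp passed in HFD (adjusted p = 0.0107) and in HFD+As (adjusted p = 0.0187). Hpx had 13.90 and 13.97 in HFD+As pools, 14.12 and 14.17 in HFD pools, 13.99 and 13.96 in LFD+As pools, and 13.87 and 13.89 in LFD pools. Here too the LFD pools were lowest and the HFD pools highest. Hpx differed by 0.26 in HFD against LFD (95% interval 0.02 to 0.49, adjusted p = 0.433) and by -0.21 in HFD+As against HFD (95% interval -0.44 to 0.03, adjusted p = 0.242).

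Of 11 partners in haemoglobin and haem handling, all were tested, and in HFD against LFD limma called 0, with 3 at an unadjusted p under 0.05. Hmox1, the haem oxygenase gene, stood at 0.60 (adjusted p = 0.100). In HFD+As against LFD, Hamp (1.52), Blvrb (0.88) and Hmox1 (0.59) passed as higher and Lrp1 (-0.82) as lower. Their adjusted p lay between 0.00494 and 0.0163. Leaving out 1 array gave 0.93 to 2.10 for Hamp and 0.66 to 1.10 for Blvrb. It gave 0.53 to 0.64 for Hmox1 and -0.92 to -0.73 for Lrp1. Over both waters the high-fat diet raised Hmox1 by 0.42 (adjusted p = 0.0277), a call lost with all genes tested. Blvrb, a biliverdin reductase gene, rose in HFD+As against HFD by 0.79 (adjusted p = 0.0254). Lrp1, the receptor gene for hemopexin and haem, fell by 0.74 (adjusted p = 0.0307), and Cd163, whose product in humans takes up haptoglobin with haemoglobin, fell by 0.62 (adjusted p = 0.0416). Blvrb was not called without HFD replicate 1 or HFD+As replicate 2 (0.57 to 1.01 over the 8 fits), and not with all genes tested. Lrp1 (-1.01 to -0.47) and Cd163 (-0.78 to -0.47) were not called without HFD replicate 1, HFD+As replicate 1 or either LFD array, nor with quantile normalization, all genes tested or the span trend removed.

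Itih3 had 12.28 and 12.47 in HFD+As pools, 12.80 and 12.77 in HFD pools, 12.55 and 12.36 in LFD+As pools, and 12.27 and 12.34 in LFD pools. The HFD pools stood above the other 6, both LFD+As pools lay above both LFD pools, and HFD+As overlapped each of those low-fat groups. Its differences were 0.48 in HFD against LFD (95% interval 0.22 to 0.74, adjusted p = 0.129), -0.41 in HFD+As against HFD (95% interval -0.67 to -0.15, adjusted p = 0.0682) and 0.08 in HFD+As against LFD. With an intensity trend in the variance prior, Itih3 passed in HFD against LFD (adjusted p = 0.0474) and in HFD+As against HFD (adjusted p = 0.0416). Itih4 had 12.95 and 13.14 in HFD+As pools, 13.70 and 13.57 in HFD pools, 13.43 and 13.43 in LFD+As pools, and 13.34 and 13.43 in LFD pools. The HFD+As pools were below the other 6, unlike in the other 9 genes. Itih4 fell by 0.59 in HFD+As against HFD (SE 0.12, 95% interval -0.85 to -0.34, adjusted p = 0.0276), and against LFD it stood at -0.34 (SE 0.12, adjusted p = 0.0652) and against LFD+As at -0.39 (SE 0.12, adjusted p = 0.0518). With quantile normalization those last 2 differences passed (-0.34 and -0.38, adjusted p = 0.0415 and 0.0448). The call against HFD was lost without HFD replicate 1 (-0.53, adjusted p = 0.237) or HFD+As replicate 1 (-0.50, adjusted p = 0.165), with all genes tested (adjusted p = 0.0719) and with the span trend removed (-0.47, adjusted p = 0.0897).

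Itih3 lies beside Itih4, at chr14:30908572-30923787 (GRCm38.p6). Of 6 relatives of the inter-alpha-trypsin inhibitor, 4 were tested, and in HFD against LFD limma called 0 and none had an unadjusted p under 0.05, with Itih1 at 0.12 (adjusted p = 0.787) and Ambp, the gene of the bikunin light chain, at 0.09 (adjusted p = 0.853). Itih5 fell by 0.96 in HFD+As against HFD (adjusted p = 0.0149) and by 1.05 against LFD (adjusted p = 0.00312). The first was not called without HFD replicate 1 or HFD+As replicate 1 (-1.05 to -0.87), with all genes tested or with the span trend removed, and the second was called without any 1 array.

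Il1rn had 7.80 and 7.60 in HFD+As pools, 7.68 and 7.66 in HFD pools, 7.69 and 7.30 in LFD+As pools, and 7.39 and 7.57 in LFD pools. The pools of HFD+As and HFD lay above both LFD pools, and LFD+As overlapped every other group. Its differences from LFD were 0.22 in HFD+As (95% interval -0.09 to 0.53, adjusted p = 0.323), 0.19 in HFD (95% interval -0.12 to 0.49, adjusted p = 0.718) and 0.01 in LFD+As. Il1a, a ligand of the receptor that the Il1rn product blocks, had a mean of 8.21 in HFD, against 7.36 in LFD. It rose by 0.85 in HFD against LFD (SE 0.15, adjusted p = 0.0238) and by 0.53 in HFD+As against LFD (SE 0.15, adjusted p = 0.0289). Over both waters the high-fat diet raised Il1a by 0.53 (adjusted p = 0.0165) and Il1b by 0.30 (adjusted p = 0.0380). Of 9 cytokine ligands, 8 were measured and only these 2 were tested, so the others are not described. The group means of Il1b lay between 6.84 and 7.32, near the limit of 6.97 for testing. Between HFD+As and LFD+As the difference was 0.22 for Il1a and 0.33 for Il1b, and neither passed (adjusted p = 0.368 and 0.0747). The HFD call of Il1a was lost without LFD replicate 1, LFD replicate 2 or HFD replicate 2 (0.61 to 1.08), and with quantile normalization, all genes tested or the span trend removed. In HFD+As it was lost without either LFD array or HFD+As replicate 1 (0.45 to 0.61) and with all genes tested. Over both waters, Il1a was not called without LFD replicate 2, HFD replicate 2 or HFD+As replicate 1 (0.41 to 0.65), and Il1b not without 6 of the 8 arrays in turn (0.27 to 0.33), where the exceptions were HFD replicate 1 and HFD+As replicate 2. The Il1b call was also lost with all genes tested, the span trend removed or the replicate block.

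Arsenite went with opposite differences on the 2 diets for 8 of the 9 tested genes. How many of all genes had such opposite differences was not counted. The median arsenite difference over all genes tested was -0.13 on HFD and -0.01 on LFD. The interaction, the arsenite difference on HFD minus that on LFD, passed for 0 of 9 in limma and for 0% of all genes. At an unadjusted p under 0.05 it was below 0 for 7 of the 9, beside 12.4% of all genes tested. The interaction was -1.54 for Lbp (95% interval -2.10 to -0.98, adjusted p = 0.0635), -1.27 for Lrg1 (95% interval -1.71 to -0.84, adjusted p = 0.0591), -1.11 for Apcs (adjusted p = 0.289) and -1.04 for Fgl1 (adjusted p = 0.170). It was -0.64 for Itih4, -0.59 for Hp, -0.56 for Itih3 and -0.30 for Hpx (adjusted p between 0.187 and 0.398). For Il1rn it was 0.02 (95% interval -0.41 to 0.45). Over all genes tested the median interaction was -0.12, and it was -0.06 after quantile normalization and 0.00 with the span trend removed. With that trend removed the interaction was -1.38 for Lbp (adjusted p = 0.177), -1.32 for Lrg1 (adjusted p = 0.124) and -0.88 for Fgl1 (adjusted p = 0.378). With an intensity trend in the variance prior the interactions of Lbp and Lrg1 passed (adjusted p = 0.0223 for both), and that of Lrg1 also among the 40% brightest genes (adjusted p = 0.0350). Without LFD+As replicate 2, those of Lbp (-1.71), Lrg1 (-1.42) and Fgl1 (-1.28) passed, without HFD replicate 2 those of Lbp (-1.71) and Lrg1 (-1.43), and without HFD+As replicate 2 that of Lbp (-1.84).

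**Figure D3:**
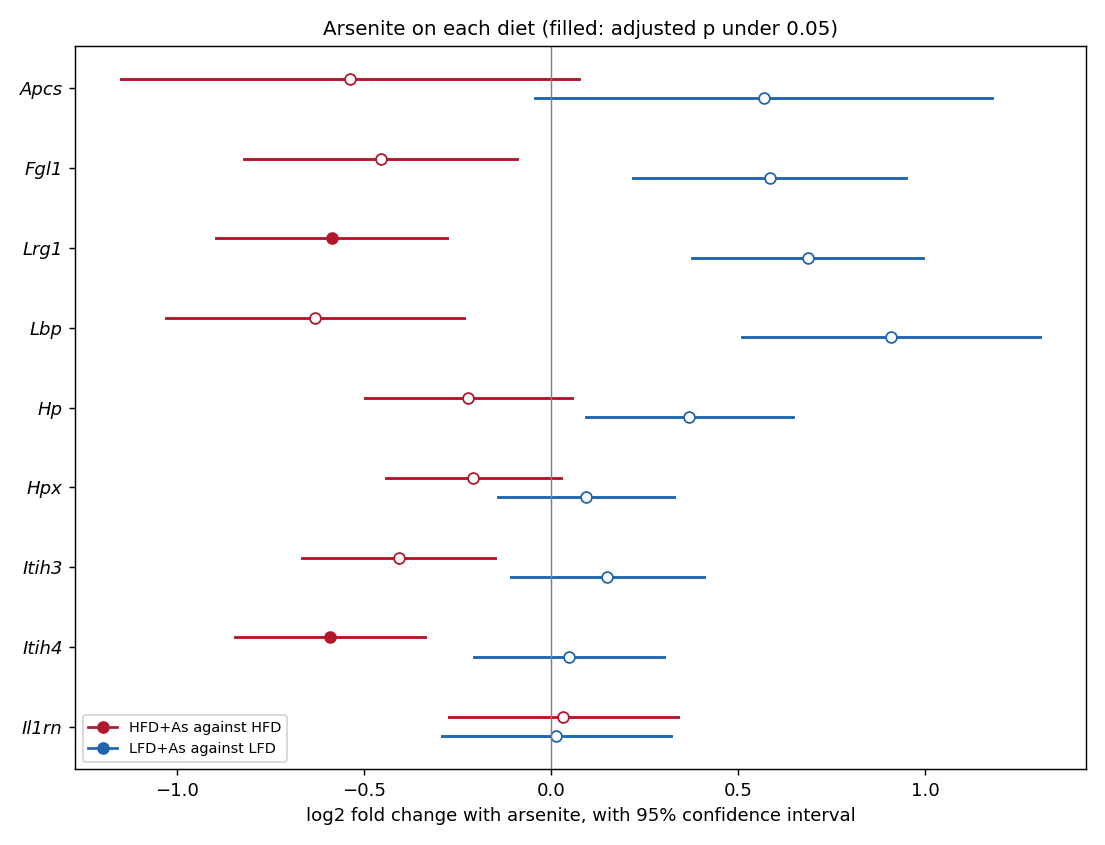
Log2 fold changes with arsenite (horizontal axis) of the 9 tested genes with unadjusted 95% confidence intervals, on the high-fat diet (HFD+As against HFD) and on the low-fat diet (LFD+As against LFD); filled points had an adjusted p under 0.05. For 8 genes the high-fat point lies below 0 and the low-fat point above it, and Il1rn lies near 0 on both.

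Most genes on the array were lower in HFD+As than in HFD. Of all genes tested, 45.8% had both HFD+As arrays below both HFD arrays, and 7 of the 9 acute phase genes did. The median over the 9 genes was -0.46, with -0.13 over all genes. After quantile normalization the median over all genes was -0.07, and with the span trend removed it was 0.00. Averaged over both diets, arsenite gave 0 calls among the 9 in limma, beside 0.568% of all genes, with differences between -0.27 (Itih4, unadjusted p = 0.00608) and 0.14 (Lbp) and 1 gene, Itih4, below 0 at an unadjusted p under 0.05, beside 13.3% of all genes. Averaged over both waters, the high-fat diet raised Apcs by 0.90 (SE 0.20, adjusted p = 0.0221), Fgl1 by 0.64 (SE 0.12, adjusted p = 0.0139) and Lrg1 by 0.50 (SE 0.10, adjusted p = 0.0179), 3 of the 9, beside 2.98% of all genes. These averages join unlike differences, 1.45, 1.16 and 1.14 without arsenite and 0.35, 0.12 and -0.14 under it. The differences under arsenite did not pass (adjusted p = 0.466, 0.706 and 0.586). For all 3 genes the high-fat arrays of both waters overlapped the low-fat arrays. Hp (0.31, adjusted p = 0.0561) and Lbp (0.36, adjusted p = 0.106) did not pass. Of these 3 averages, that of Fgl1 was called in 6 of the 8 fits that left out 1 array, lost without LFD replicate 1 (0.56) or HFD replicate 2 (0.55). That of Lrg1 was called in 4, lost without LFD replicate 1 (0.44), LFD replicate 2 (0.56), LFD+As replicate 2 (0.43) or HFD+As replicate 1 (0.52), and that of Apcs in 2, without LFD+As replicate 1 or HFD replicate 1 (0.63 to 1.17 over the 8 fits). Between HFD+As and LFD+As limma called 0 of the 9, beside 10.3% of all genes, and Lbp (-0.41) and Itih4 (-0.39) had an unadjusted p under 0.05 below 0, beside 22.8%. Itih4 passed without HFD+As replicate 2 (-0.49, adjusted p = 0.0448), as did Lbp (-0.71, adjusted p = 0.0330).

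Among the genes that carry acute phase signals, 2 inhibitors of NF-kB signalling passed as higher in HFD against LFD. Nfkbia, the gene of an NF-kB inhibitor, rose by 0.75 in HFD against LFD (SE 0.12, adjusted p = 0.0167), and Tnfaip3, which encodes a further inhibitor of that pathway, rose by 0.84 (SE 0.15, adjusted p = 0.0294). These were 2 of 10 inhibitors tested, and 0 of 8 cytokine receptors and 0 of 13 transducers and transcription factors passed in limma in that comparison, with 2 and 4 of them at an unadjusted p under 0.05. Osmr, the oncostatin M receptor gene, stood at 0.68 (adjusted p = 0.100), Stat3 at 0.39 (adjusted p = 0.311) and Cebpb at 0.34 (adjusted p = 0.401). Nfkbia fell in HFD+As against HFD by 0.49 (adjusted p = 0.0416) and the STAT inhibitor gene Socs2 by 0.74 (adjusted p = 0.0481), 2 of the 10 inhibitors. Of the 13 transducers, 1 passed as higher in HFD+As against LFD, Cebpb (0.44, adjusted p = 0.0428), and 3 as lower. The lower ones were the glucocorticoid receptor gene Nr3c1 (-0.48, adjusted p = 0.0148) and the Janus kinase genes Tyk2 (-0.44, adjusted p = 0.0390) and Jak2 (-0.39, adjusted p = 0.0399). The HFD calls of Nfkbia (0.66 to 0.83) and Tnfaip3 (0.70 to 0.98) were lost without either LFD array or HFD replicate 1, and that of Tnfaip3 also without HFD replicate 2. Both were lost with all genes tested, and that of Tnfaip3 with the span trend removed. Against HFD, Nfkbia was called in 1 of the 8 fits (without HFD replicate 2) and Socs2 in 3, and Cebpb against LFD in 2 (without either HFD array). Those ranges were -0.58 to -0.41 for Nfkbia, -0.87 to -0.61 for Socs2 and 0.28 to 0.60 for Cebpb. With all genes tested and with the span trend removed these 3 calls were lost, those of Nfkbia and Socs2 also with quantile normalization, and that of Nfkbia with the replicate block. Nr3c1 was called in 5 of the 8 fits (-0.57 to -0.40), Tyk2 in 3 (-0.59 to -0.28) and Jak2 in 2 (-0.47 to -0.30). These 3 were not called without either LFD array or HFD+As replicate 1, Tyk2 and Jak2 also not without either LFD+As array, and Jak2 not without HFD+As replicate 2. With the span trend removed all 3 calls were lost, with all genes tested or the replicate block those of Tyk2 and Jak2, and with quantile normalization that of Jak2. Socs2 fell by 2.04 in LFD+As against LFD (adjusted p = 0.000546), lost only without LFD replicate 1 among the arrays, and it fell by 1.62 in HFD+As against LFD (adjusted p = 0.000814), called without any 1 array.

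Genes of the other acute phase proteins gave values on both sides of those above. Of 16 tested positive acute phase genes outside the 10, 4 passed as higher in HFD+As against LFD and 1 as lower. The higher ones were Saa1 (2.701), Lcn2 (2.15), Saa3 (1.93) and Steap4 (0.88). In LFD+As against LFD 1 passed, Lcn2 (2.31, adjusted p = 0.0396), called in 4 of the 8 fits leaving out 1 array. Quantile normalization, testing all genes and removing the span trend each ended that call and that of Saa3 in HFD against LFD. In HFD against LFD 3 of the 16 passed as higher, with a median of 0.48 over all 16. They were Saa1 (4.005, adjusted p = 0.00913), Lcn2 (3.06, adjusted p = 0.00417) and Saa3 (1.99, adjusted p = 0.0275). Both Saa1 differences from LFD start from an LFD mean of 6.28, below the limit of 6.97 for testing. In HFD against LFD, leaving out 1 array gave 2.77 to 5.24 for Saa1, 2.45 to 3.68 for Lcn2 and 1.22 to 2.76 for Saa3. These were called in 6, 7 and 5 of the 8 fits that left out 1 array, and all 3 were lost without LFD replicate 1. Between HFD+As and HFD, 2 of the 16 passed as lower, Orm2 (-1.11, adjusted p = 0.0473) and C4b (-0.57, adjusted p = 0.0469), both lost with quantile normalization, with all genes tested and with the span trend removed, and each called in 3 of the 8 fits that left out 1 array (Orm2 -1.58 to -0.64, C4b -0.79 to -0.34). Of 13 negative acute phase genes, whose plasma proteins fall in the response, 0 passed in limma in HFD against LFD, 3 had an unadjusted p under 0.05 and the median was -0.01, with Serpina6, the corticosteroid-binding globulin gene, at -0.48 (adjusted p = 0.173). Serpina6 fell by 0.87 in HFD+As against LFD (SE 0.13, adjusted p = 0.00333), and this was called without any 1 array.

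The 10 genes varied together to different degrees. Over the 8 arrays the correlation of a gene with the mean of the other tested genes was 0.96 for Hp, 0.95 for Fgl1, 0.93 for Lrg1, Hpx and Itih3, 0.84 for Lbp, 0.80 for Cd14 and 0.78 for Apcs. It was 0.46 for Il1rn and 0.38 for Itih4. The mean deviation of the 9 genes from their own averages was -0.11 and 0.06 in HFD+As pools, 0.33 and 0.42 in HFD pools, 0.16 and -0.13 in LFD+As pools, and -0.40 and -0.33 in LFD pools. Of the 11954 other tested genes, the 8 most like this mean had correlations from 0.94 to 0.99. They were Serpina10, which encodes a protease inhibitor of coagulation, Pgm3, an enzyme gene of hexosamine synthesis, the adhesion molecule genes Icam1 and Vcam1, Gtf2h3, a subunit gene of transcription factor TFIIH, the endothelial lipase gene Lipg, and Gm527 and 2810002D19Rik. Serpina10 had 11.39 and 11.69 in HFD+As pools, 11.94 and 12.02 in HFD pools, 11.75 and 11.34 in LFD+As pools, and 11.14 and 11.23 in LFD pools. Icam1 had 8.79 and 8.83, 9.24 and 9.21, 9.12 and 8.77, and 8.54 and 8.34 in the same order of groups. These correlations rest on 8 arrays in 4 groups and were the highest of many, so they are given with no test.

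**Figure D4:**
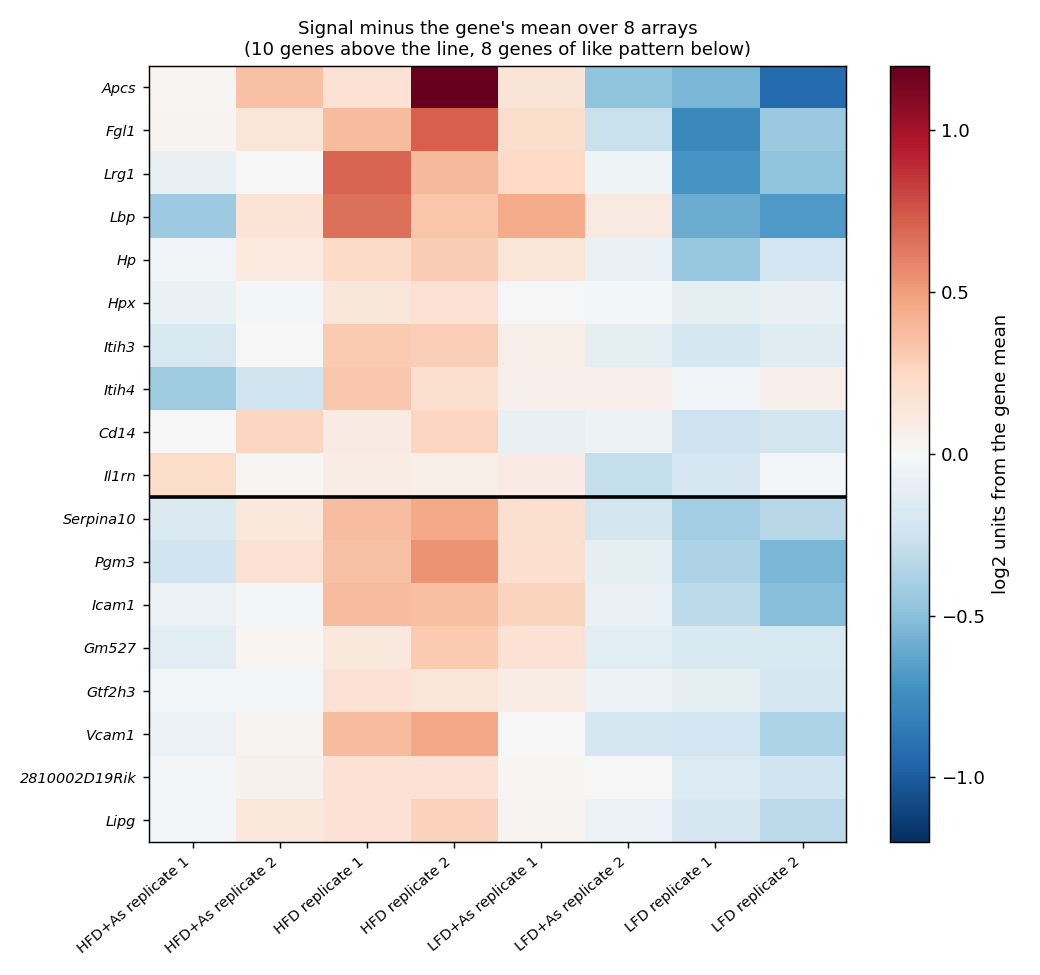
Signals of the 10 genes (above the line) and of the 8 genes of like pattern (below it) in each array, as log2 units from the gene's mean over the 8 arrays; red is above and blue below that mean, with white at the mean. The 2 HFD columns are above the mean in all 18 rows and LFD replicate 1 is below it in all 18.

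Markers of other cells also moved in some of these comparisons, and fewer cells of a type and less RNA per cell cannot be told apart in such pools. The summed linear signal of 9 measured hepatocyte markers was 125157 and 129633 in HFD+As pools, 137027 and 126807 in HFD pools, 134728 and 136557 in LFD+As pools, and 136604 and 137127 in LFD pools. The sum of 14 macrophage and Kupffer cell markers was 11912 and 9651 in HFD+As pools, 15303 and 13680 in HFD pools, 10480 and 12893 in LFD+As pools, and 12640 and 12196 in LFD pools. Of these 14, 0 passed in HFD against LFD in limma (7 at an unadjusted p under 0.05, 11 above 0, median 0.28). In HFD+As against HFD their median was -0.52, with -0.13 over all genes tested, and 4 passed as lower (Mpeg1, Cd163, Adgre1 and Cd5l). These 4 were called in 6, 4, 3 and 3 of the 8 fits that left out 1 array. The calls of Cd163, Adgre1 and Cd5l were lost with quantile normalization, with all genes tested and with the span trend removed. In HFD+As against LFD, Marco passed as higher (0.54, adjusted p = 0.00997), and Csf1r (-0.66, adjusted p = 0.0283) and Mpeg1 (-0.49, adjusted p = 0.0276) passed as lower. The macrophage sums were highest in HFD, where 9 of the 10 acute phase genes had their highest mean, and their part in the results was not tested. The sum of 13 neutrophil and monocyte markers was 1386 and 1390 in HFD+As pools, 1230 and 1317 in HFD pools, 1176 and 1119 in LFD+As pools, and 1038 and 1166 in LFD pools, with gene means of 5.91 to 7.13, below or near the array medians of 7.08 to 7.18. Of these markers 3 were tested. In HFD+As, 3 were above 0 against LFD (median 0.13) and 2 against LFD+As (median 0.19). S100a9 had a mean of 6.79 in LFD, below the limit of 6.97 for testing. Of the 3, it alone passed, as higher in HFD+As against LFD (0.81, adjusted p = 0.00555) and against LFD+As (0.64, adjusted p = 0.0238). It also passed for the high-fat diet over both waters (0.52, adjusted p = 0.0165).

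Across genes, an array's deviations also followed the genomic span of a gene, with rank correlations of -0.45 and -0.29 in HFD+As, 0.25 and -0.14 in HFD, 0.22 and 0.35 in LFD+As, and 0.34 and 0.14 in LFD. The 9 tested genes span 1094 bases (Apcs) to 26545 bases (Fgl1). With that trend removed, the calls of Fgl1, Lrg1 and Lbp in HFD against LFD and of Fgl1 in HFD+As against LFD remained, and Lbp passed as higher in HFD+As than in LFD (0.63, adjusted p = 0.0495).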

How the data were processed

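Livers were measured on 8 Affymetrix Mouse Gene 1.0 ST arrays, 2 pools of 5 mice for each of 4 groups. The authors deposited a log2 signal for every transcript cluster, and the submitters' processing notes name Affymetrix Expression Console 1.0. How background was corrected and arrays were normalized is not given in the sources used here, the table has no detection calls, and the number of arrays limits the precision. Array medians lay between 7.08 and 7.18, and values were used as deposited with no pseudocount. Platform annotation gave 1 symbol to 21789 clusters and several to 1621. The cluster with the highest mean stood for its gene, and the 60% of 19938 genes with the highest means (at least 6.97) were tested. One limma 3.58.1 fit (R 4.3.3) of 4 group means to all 8 arrays left 4 residual degrees of freedom with 9.32 prior ones, with Benjamini-Hochberg adjustment over all 11963 genes, separately for each comparison. The fit was tested on simulated data. The alternatives were quantile normalization, no filter on low values, a filter at 40%, the mean of a gene's clusters, an intensity trend in the variance prior, only the groups compared, the replicate number as a block, removal of the trend with gene span, and leaving out each array. The 10 genes were named in every comparison, and each partner list offered its 4 largest passing changes or, failing any, the 2 smallest p-values. The text prints some of these, picked after their values were seen. Genes of like pattern were the 8 with the highest correlation to the mean of the tested genes. The genes and lists were chosen with earlier results of these data known. Gene positions, spans and promoter windows are from RefSeq tables of GRCm38.p6.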

Additional observations from a re-analysis of the deposited data

How the results depend on the processing

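Differences of single genes kept their direction wherever they were called, under every alternative run. Counts below are of genes among the 10 past the threshold. With no filter on low values they were 2 instead of 4 in HFD against LFD, 1 instead of 3 in HFD+As against LFD, 0 instead of 2 in HFD+As against HFD and 1 instead of 3 for the high-fat diet over both waters; more genes were then adjusted for. In HFD+As against HFD, quantile normalization and the replicate block each gave 1 and removal of the gene-span trend gave 0. In HFD+As against LFD+As, quantile normalization, the filter at 40% and the intensity trend each gave 1 instead of 0 (Itih4). The interaction gave 1 with the filter at 40% and 2 with the intensity trend, instead of 0, and that trend gave 5 instead of 3 in HFD+As against LFD, 6 instead of 4 in HFD against LFD (Hp and Itih3 added) and 3 instead of 2 in HFD+As against HFD (Itih3 added). With the 2 groups alone, LFD+As against LFD gave 1 (Lbp). Apart from the filters, the cause of these changes was not tested. With each array left out in turn, counts lay between 0 and 1 for LFD+As against LFD, 0 and 4 for HFD against LFD, 0 and 3 for HFD+As against LFD, 0 and 3 for HFD+As against HFD, 0 and 2 for HFD+As against LFD+As, 0 and 3 for the interaction and 0 and 3 for the high-fat diet over both waters, and stayed at 0 for arsenite over both diets. Replicate numbers were checked for pairing: the deviations of replicate 1 from the group means correlated at -0.22 to 0.18 between groups across genes, and the numbers were not taken to pair pools. The replicate block ended the calls of Apcs in HFD against LFD (adjusted p = 0.0567) and in HFD+As against LFD (adjusted p = 0.0533) and of Lrg1 in HFD+As against HFD (adjusted p = 0.0557), and changed no other call of the 9 genes. Of 72 differences, 72 kept their side of the threshold with the mean of a gene's clusters. Each of the 10 genes had 1 cluster, so that setting could not change their differences and is no check of them. The array gives no detection calls, so the dim signals of Cd14 and Il1rn carry no known margin over background.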
